A study of Homo sapiens with 6 samples.

Results

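This account covers 10 genes of the YAP and TEAD pathway in HCCLM3 cells, a human hepatocellular carcinoma line known for its metastatic behaviour. The genes were chosen by symbol from the 34234 gene symbols counted, with earlier results of these data known, and all 10 were present. They comprise 4 effectors, namely YAP1, WWTR1, TEAD1 and TEAD4, and 6 direct targets of those effectors, namely CTGF, CYR61, ANKRD1, AMOTL2, LATS2 and AXL. Messenger RNA was measured by sequencing of poly-A-selected RNA in 3 shATXN7L3 libraries, from cells given a lentivirus with a short hairpin RNA against ATXN7L3, and in 3 shcontrol libraries, from cells given a lentivirus with a control hairpin. Virus-containing medium was exchanged for fresh medium after 16 hours in either group, and neither the time from there to harvest nor the hairpin sequences are given in the sources used here. All libraries came from the 1 cell line. Whether the replicates came from separate cultures is not stated in the labels. The p-values therefore cover only variation among these 6 libraries, which may be technical.

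YAP1 and its paralog TAZ, the product of WWTR1, are transcriptional coactivators without a DNA-binding domain of their own. When the Hippo kinases are active, LATS kinases phosphorylate both proteins, which keeps them out of the nucleus and marks them for degradation. When the kinases are inactive, YAP and TAZ enter the nucleus and act through the TEAD transcription factors on genes of growth, matrix and cytoskeleton. In liver the pathway limits organ size, and YAP is often active in hepatocellular carcinoma. Its activity is set in large part by phosphorylation and location of the proteins, which mRNA counts do not measure.

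In shATXN7L3 cells the mRNAs of the 2 coactivators were slightly higher, and those of 3 of the 5 targets that could be tested were lower. Among all 17935 tested genes, 24.2% were called, 12.2% higher and 12.0% lower. YAP1 was 1.16-fold and WWTR1 1.17-fold the shcontrol level. CTGF stood at 48.4%, CYR61 at 62.6% and AMOTL2 at 80.0% of the shcontrol level. AXL went the other way, at 1.98-fold. TEAD1, TEAD4 and LATS2 did not pass the test, and ANKRD1 had too few counts for it.

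TEAD proteins recognise the letters GGAATG, or CATTCC when read on the other strand. RefSeq promoter windows on build GRCh38.p14, running from 250 bases before to 50 bases after an annotated start, were found for 7 of the 10 genes, 10 windows in all. No window was used here for TEAD1, TEAD4 or CYR61. Of all 34943 such windows, 14.0% held at least 1 match on either strand, 1.37% at least 2 and 0.126% at least 3. The 250 bases before the start are shown here for targets that were called lower or higher and for ANKRD1, which was not tested in that fit, 5′ to 3′ on the gene's strand, with the matches in capitals. The CTGF stretch is chr6:131951373-131951622 (minus strand), the ANKRD1 stretch chr10:90921088-90921337 (minus strand), the AMOTL2 stretch chr3:134374448-134374697 (minus strand) and the AXL stretch chr19:41226505-41226754 (plus strand). AMOTL2 and AXL have 2 annotated starts each, and only the second is shown, the one with a match. Both of these stretches lie within the annotated span of their gene.
CTGF: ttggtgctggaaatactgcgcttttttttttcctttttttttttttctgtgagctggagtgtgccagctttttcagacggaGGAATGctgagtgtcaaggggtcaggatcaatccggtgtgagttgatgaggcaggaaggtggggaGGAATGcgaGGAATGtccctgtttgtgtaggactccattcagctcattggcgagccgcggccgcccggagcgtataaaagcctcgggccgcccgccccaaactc
ANKRD1: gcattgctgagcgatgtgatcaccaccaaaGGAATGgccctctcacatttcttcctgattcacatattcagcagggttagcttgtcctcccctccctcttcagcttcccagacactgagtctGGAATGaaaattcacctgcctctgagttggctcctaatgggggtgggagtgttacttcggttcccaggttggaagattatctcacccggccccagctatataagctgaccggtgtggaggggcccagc
AMOTL2: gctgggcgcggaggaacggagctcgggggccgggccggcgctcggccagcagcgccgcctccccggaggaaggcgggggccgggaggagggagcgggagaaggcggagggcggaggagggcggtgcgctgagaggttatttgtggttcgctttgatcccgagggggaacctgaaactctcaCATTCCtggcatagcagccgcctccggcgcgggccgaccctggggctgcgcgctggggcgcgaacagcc
AXL: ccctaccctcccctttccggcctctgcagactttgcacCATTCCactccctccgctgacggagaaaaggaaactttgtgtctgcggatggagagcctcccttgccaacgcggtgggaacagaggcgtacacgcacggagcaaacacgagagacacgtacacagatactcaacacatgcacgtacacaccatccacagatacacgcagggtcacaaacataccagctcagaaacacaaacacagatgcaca

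CTGF held 3 matches, beginning 169, 104 and 95 bases before the start, and was 1 of 44 windows among the 34943 with 3 or more. ANKRD1 held 2, beginning 220 and 128 bases before the start. AMOTL2 and AXL each held 1 match at the second of 2 annotated starts, on the opposite strand, beginning 69 and 212 bases before it, and none at the first. LATS2 held 1 match just after its start (chr13:21061557-21061586, minus strand), shown within 30 bases because LATS2 is the target that did not pass the test.
LATS2: gacgcccgtGGAATGccaacaatgtagcga

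YAP1 itself had 1 match, beginning 162 bases before its start, and the 2 WWTR1 windows had none. Matches thus occurred in windows of targets that were lower, of the target that was higher and of the target that did not pass the test. A match is a description of the letters and does not show that a TEAD protein binds there.

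**Figure D1:**
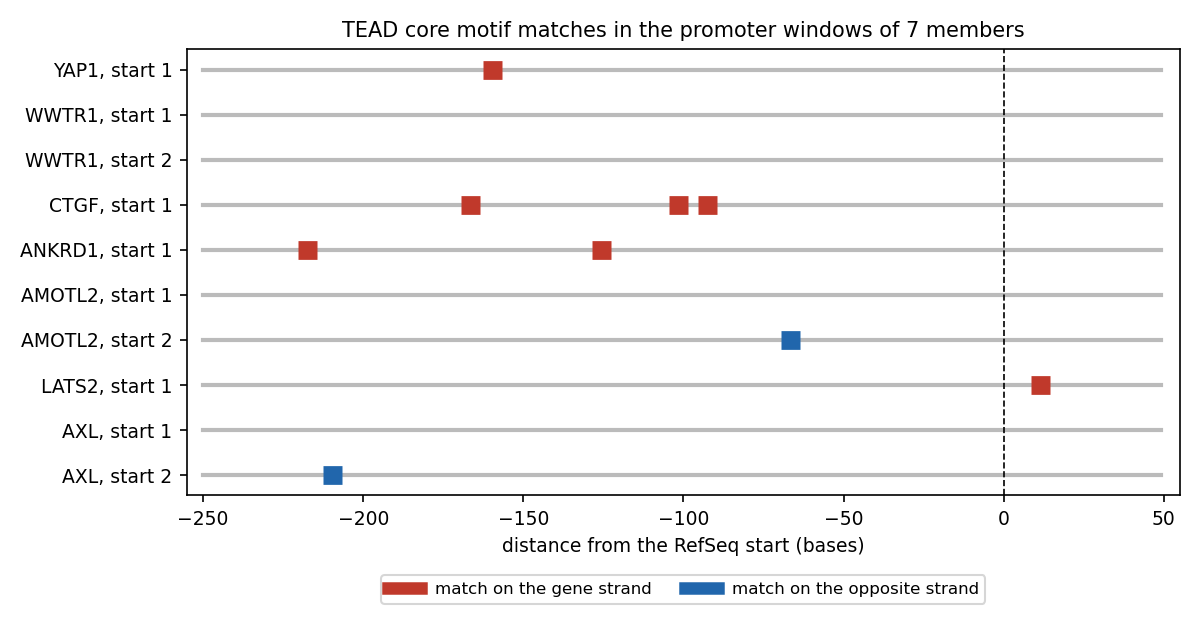
Matches to the TEAD core letters in 10 RefSeq promoter windows of 7 members, with distance from the annotated start in bases on the horizontal axis and 1 line per annotated start, red for matches on the gene strand and blue for the opposite strand. CTGF has 3 matches and ANKRD1 2, and the 2 WWTR1 windows have none.

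The libraries held 22757031 to 23915783 counts in shATXN7L3 and 22376867 to 23033763 in shcontrol. The targeted gene ATXN7L3, an adaptor of the deubiquitinase module of the SAGA coactivator complex, was at 20.6, 20.5 and 19.5 CPM (counts per 1e6 counts after TMM scaling) in shATXN7L3 libraries, against 36.4, 37.5 and 37.5 CPM in shcontrol libraries (log2 fold change -0.88 ± 0.056, SE, edgeR adjusted p = 6.69e-10). Of 8 hepatocyte markers 7 could be tested and all 7 were lower, with a summed level of 124 to 129 CPM in shATXN7L3 and 355 to 412 CPM in shcontrol. Among them TTR had few counts (8, 12 and 3 in shATXN7L3 libraries, 20, 11 and 20 in shcontrol libraries) and passed the filter through shcontrol. The pan-leukocyte gene PTPRC averaged 0.196 CPM in shATXN7L3 and 0.149 CPM in shcontrol, the endothelial gene CDH5 0.0143 CPM in shATXN7L3 and 0.0446 CPM in shcontrol, and the fibroblast gene COL1A2 0.0416 CPM in shATXN7L3 and 0.0887 CPM in shcontrol. Summed endothelial markers ran from 42.6 to 44.4 CPM in shATXN7L3 and from 57.3 to 62.3 CPM in shcontrol and were mostly PECAM1 and KDR. Leukocyte markers ran from 120 to 125 CPM in shATXN7L3 and from 89.9 to 110 CPM in shcontrol and were mostly CD68. LYZ, the other tested leukocyte marker, was lower (log2 fold change -2.42, edgeR adjusted p = 1.47e-04) but near the limit of detection. It had 6, 2 and 4 counts in shATXN7L3 libraries, against 22, 14 and 26 in shcontrol libraries, and passed the filter through shcontrol. Stellate cell and fibroblast markers ran from 5.48 to 6.24 CPM in shATXN7L3 and from 23.8 to 28.1 CPM in shcontrol and were mostly LUM. The part of these shifts in the results below was not tested. In a bulk sample, fewer cells with a transcript and less of it per cell cannot be told apart.

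Per exonic length, YAP1 and WWTR1 were the most abundant members. In TPM, the counts per length scaled to a common sum in each library, YAP1 averaged 33.5 ± 1.12 in shATXN7L3 and 28.6 ± 1.98 in shcontrol, and WWTR1 23.5 ± 0.751 in shATXN7L3 and 19.8 ± 1.49 in shcontrol (SD, n = 3 each). In shATXN7L3 the order then ran TEAD1 (7.82 TPM), CTGF (7.30), AXL (4.78), AMOTL2 (3.84), TEAD4 (2.92), CYR61 (1.87), LATS2 (1.31) and ANKRD1 (0.0105), and no neighbours in that order overlapped between libraries. In shcontrol it ran CTGF (14.9 TPM), TEAD1 (8.16), AMOTL2 (4.74), CYR61 (2.95), TEAD4 (2.48), AXL (2.38), LATS2 (1.26) and ANKRD1 (0.305), where TEAD4 overlapped its neighbours CYR61 and AXL. CTGF thus stood below TEAD1 in shATXN7L3 and above it in shcontrol, and AXL above CYR61 and AMOTL2 in shATXN7L3 and below both in shcontrol.

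**Figure D2:**
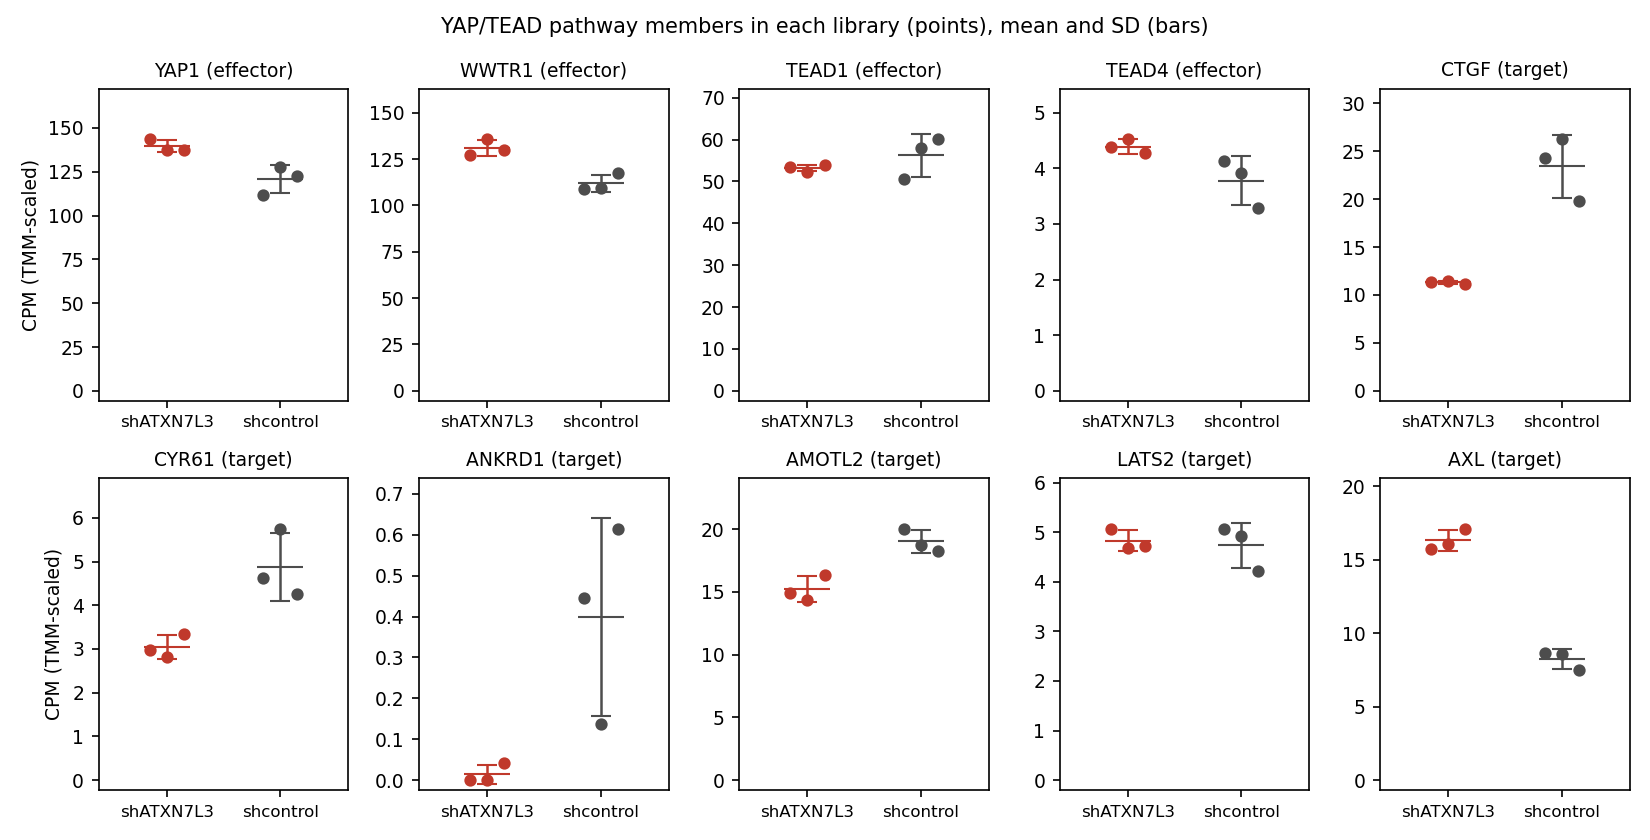
TMM-scaled CPM of the 10 members, with shATXN7L3 on the left and shcontrol on the right of each panel, points for the 3 libraries and bars for mean and SD on axes that begin near 0. The groups do not overlap for any panel except TEAD1 and LATS2, and CTGF spreads little in shATXN7L3 and widely in shcontrol.

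Of the 10 members, 9 passed the filter on low counts. Of these 9, 3 were higher and 3 lower at a Benjamini-Hochberg adjusted p under 0.05, in a comparison where 24.2% of the 17935 tested genes were called, 12.2% higher and 12.0% lower. The groups did not overlap in 7 of the 9, against 38.3% of all tested genes. By role, 2 of 4 effectors were higher and 0 lower (median log2 fold change 0.21), while 3 of 5 tested targets were lower and 1 higher (median -0.32). The median over all tested genes was 0.01. The same 6 members were called, in the same directions, by DESeq2 (16.8% of genes called, 7.83% higher and 8.94% lower), by limma voom (23.9%), with a replicate block (24.1%) and with no filter on low counts (12.9% of 34234 genes, 6.44% higher and 6.48% lower). Of all tested genes, 35.5% had a larger absolute log2 fold change than YAP1 and 20.3% a larger one than AMOTL2, against 1.90% for CTGF and 2.21% for AXL.

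YAP1, the main coactivator of the pathway (chromosome 11, 102110461 to 102233423, plus strand), had 144, 138 and 138 CPM in shATXN7L3 libraries, against 112, 128 and 123 CPM in shcontrol libraries. Every shATXN7L3 library lay above every shcontrol library, and the shcontrol libraries spread more widely, replicate 1 being the lowest. The log2 fold change was 0.21 ± 0.050 (SE, edgeR adjusted p = 0.00407). WWTR1, which encodes TAZ (chromosome 3, 149517235 to 149736714, minus strand), had 127, 136 and 130 CPM in shATXN7L3 libraries, against 109, 109 and 117 CPM in shcontrol libraries. Again the groups did not overlap, and the log2 fold change was 0.23 ± 0.047 (edgeR adjusted p = 0.00124). The balance of the paralogs did not differ beyond the spread of the libraries. The ratio of WWTR1 to YAP1, per length, was 0.663, 0.738 and 0.706 in shATXN7L3 libraries, against 0.730, 0.642 and 0.715 in shcontrol libraries, so the groups overlapped (difference of log2 ratios 0.02, two-sided exact permutation p = 0.9).

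TEAD1, a DNA-binding partner of YAP and TAZ (chromosome 11, 12674591 to 12944483, plus strand), had 53.4, 52.4 and 53.9 CPM in shATXN7L3 libraries, against 50.5, 58.1 and 60.1 CPM in shcontrol libraries. The groups overlapped because shcontrol replicate 1 lay below all shATXN7L3 libraries (log2 fold change -0.08, 95% interval -0.20 to 0.04, edgeR adjusted p = 0.366). Without that library TEAD1 was called lower (-0.15, edgeR adjusted p = 0.0236, range over the alternatives 0.0236 to 0.745). TEAD4, another DNA-binding partner (chromosome 12, 2959330 to 3040673, plus strand), had 4.39, 4.52 and 4.27 CPM in shATXN7L3 libraries, against 4.13, 3.91 and 3.30 CPM in shcontrol libraries. The groups did not overlap, but the call was not reached (0.22, 95% interval -0.05 to 0.49, edgeR adjusted p = 0.245).

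Relative to its coactivator, TEAD1 was lower in every shATXN7L3 library. The TEAD1 to YAP1 ratio per length was 0.228, 0.233 and 0.240 in shATXN7L3 libraries, against 0.277, 0.279 and 0.299 in shcontrol libraries. The difference of log2 ratios was -0.29 (two-sided exact permutation p = 0.1, the smallest value that 3 against 3 libraries allow, and 0.2 adjusted over the 4 ratios computed). The TEAD4 to TEAD1 ratio per length was 0.372, 0.391 and 0.358 in shATXN7L3 libraries, against 0.370, 0.305 and 0.248 in shcontrol libraries, with overlapping groups (difference of log2 ratios 0.30, two-sided exact permutation p = 0.2, 0.267 adjusted).

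**Figure D3:**
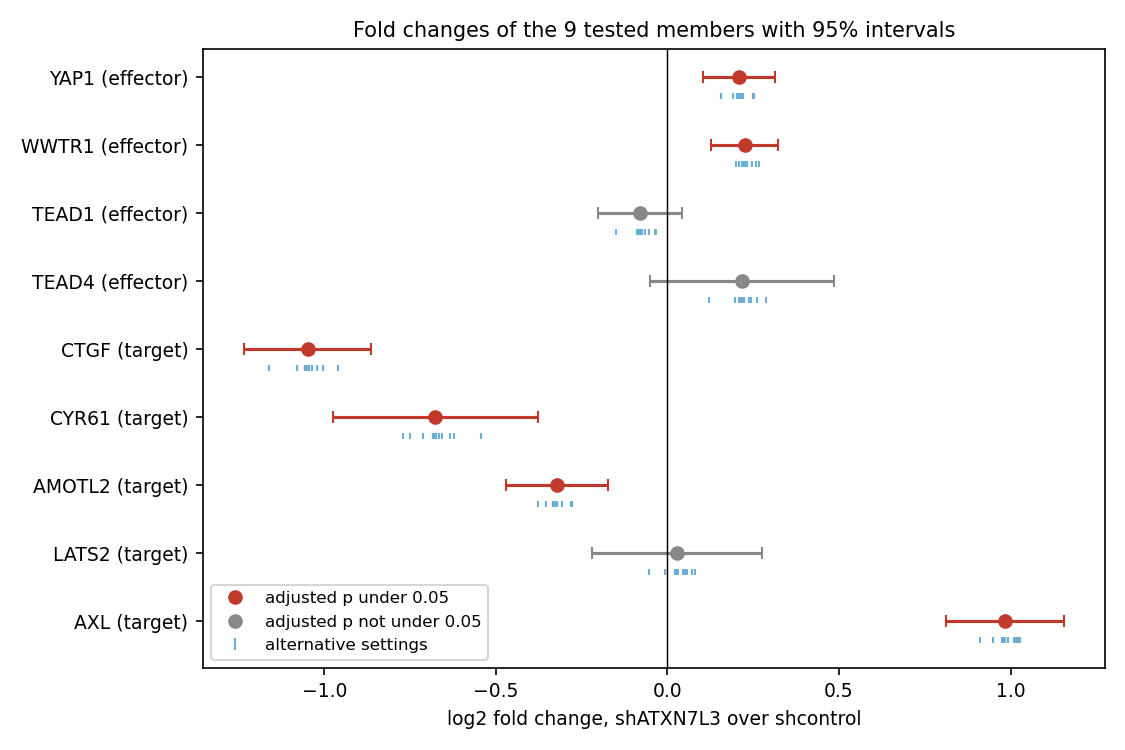
Log2 fold changes of shATXN7L3 over shcontrol on the horizontal axis for the 9 tested members, with 95% intervals, red where the adjusted p was under 0.05, and short blue marks for the alternative settings. The coactivators lie right of 0, CTGF, CYR61 and AMOTL2 left of it, and AXL farthest right at 0.98. ANKRD1 was not tested in this fit and is not drawn.

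CTGF and CYR61, now named CCN2 and CCN1, encode secreted matricellular proteins and are the readouts most often used for YAP and TEAD activity. CTGF (chromosome 6, 131948176 to 131951373, minus strand) had 11.4, 11.5 and 11.1 CPM in shATXN7L3 libraries, against 24.3, 26.2 and 19.8 CPM in shcontrol libraries. The highest shATXN7L3 library lay far below the lowest shcontrol library. The log2 fold change was -1.05 ± 0.089 (edgeR adjusted p = 3.86e-08). CYR61 (chromosome 1, 85580761 to 85583962, plus strand) was a less abundant transcript, with 2.97, 2.82 and 3.35 CPM in shATXN7L3 libraries, against 4.62, 5.75 and 4.26 CPM in shcontrol libraries. Its groups did not overlap either, and its log2 fold change was -0.68 ± 0.14 (edgeR adjusted p = 0.00149). The CYR61 to CTGF ratio of CPM was 0.261, 0.246 and 0.301 in shATXN7L3 libraries, against 0.190, 0.219 and 0.216 in shcontrol libraries. The difference of log2 ratios was 0.37, with no overlap (two-sided exact permutation p = 0.1, the smallest possible, and 0.2 adjusted over the 4 ratios).

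The spread between libraries varied by gene, and its difference between the groups was not tested. Each variance rests on 3 libraries. Over the genes as a whole, shcontrol libraries also differed more among themselves, so a wider shcontrol spread is not particular to the members. Chi-square per gene between pairs of libraries was 3.60 to 6.52 within shcontrol and 1.59 to 2.18 within shATXN7L3. In shATXN7L3 the variance of CTGF was 0.0562 times and that of CYR61 0.576 times what counting alone gives, against 10.5 times for CTGF and 2.77 times for CYR61 in shcontrol. YAP1 had 2.00 times the counting variance in shATXN7L3 and 12.1 times in shcontrol, and TEAD1 0.288 times in shATXN7L3 and 10.2 times in shcontrol. AMOTL2 went the other way, with 1.67 times in shATXN7L3 and 0.985 times in shcontrol. The library with the lowest YAP1 and TEAD1, shcontrol replicate 1, was not the one with the lowest CTGF and CYR61, which was shcontrol replicate 3.

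ANKRD1, which encodes a nuclear ankyrin repeat protein of muscle and stressed cells and is another common YAP readout, was near the limit of detection (chromosome 10, 90912096 to 90921276, minus strand). It had 0, 0 and 1 counts in shATXN7L3 libraries, against 10, 3 and 14 counts in shcontrol libraries. A count of 0 allows up to 3 counts, which is 0.129 and 0.124 CPM in shATXN7L3 replicates 1 and 2. Summed, 1 count in shATXN7L3 (exact 95% Poisson interval 0.0253 to 5.57) stood against 27 in shcontrol (17.8 to 39.3), a ratio of 0.0348 after scaling (exact 95% interval 0.000850 to 0.211). These intervals cover counting error only, and the shcontrol libraries spread 3.27 times wider in variance than counting gives. The two-sided exact permutation test gave p = 0.1, the smallest possible. With no filter on low counts ANKRD1 was called lower (edgeR adjusted p = 7.44e-06). Adjusted p-values of that fit are not on the scale of the reported fit. The edgeR adjusted p of CTGF was 1.34e-39 with no filter and 3.86e-08 in the reported fit. That of STK3 went the other way, with 0.0510 and 0.0275. ANKRD1 was also called lower in the other 3 fits that kept it (edgeR adjusted p = 0.000295 to 0.00676). These left out shATXN7L3 replicate 1 or shcontrol replicate 2, or used the minimum count of 3 added after seeing the data. Each kept ANKRD1 only through shcontrol, where it was higher, so being kept and being called lower are tied. These 3 calls are therefore not further support.

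AMOTL2 and LATS2 are targets that feed back on the pathway. AMOTL2, an angiomotin-family scaffold that holds YAP at junctions (chromosome 3, 134355874 to 134375479, minus strand), had 14.9, 14.4 and 16.4 CPM in shATXN7L3 libraries, against 20.0, 18.7 and 18.3 CPM in shcontrol libraries. It was lower without overlap of the groups (log2 fold change -0.32 ± 0.071, edgeR adjusted p = 0.00220). LATS2, a kinase that phosphorylates YAP and TAZ (chromosome 13, 20973032 to 21061547, minus strand), had 5.08, 4.69 and 4.73 CPM in shATXN7L3 libraries, against 5.07, 4.93 and 4.22 CPM in shcontrol libraries. The groups overlapped almost entirely. The log2 fold change was 0.03, with a 95% interval of -0.22 to 0.28 (edgeR adjusted p = 0.895), so differences within that interval remain compatible with these libraries.

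AXL, a receptor tyrosine kinase for GAS6 (chromosome 19, 41219203 to 41261766, plus strand), had 15.7, 16.1 and 17.1 CPM in shATXN7L3 libraries, against 8.67, 8.61 and 7.47 CPM in shcontrol libraries. It was the only one of the 5 tested targets to be called higher, and its lowest shATXN7L3 library lay well above its highest shcontrol library. The log2 fold change was 0.98 ± 0.082 (edgeR adjusted p = 3.22e-08). Of all tested genes, 99.1% had a lower log2 fold change than AXL and 1.15% a lower one than CTGF.

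**Figure D4:**
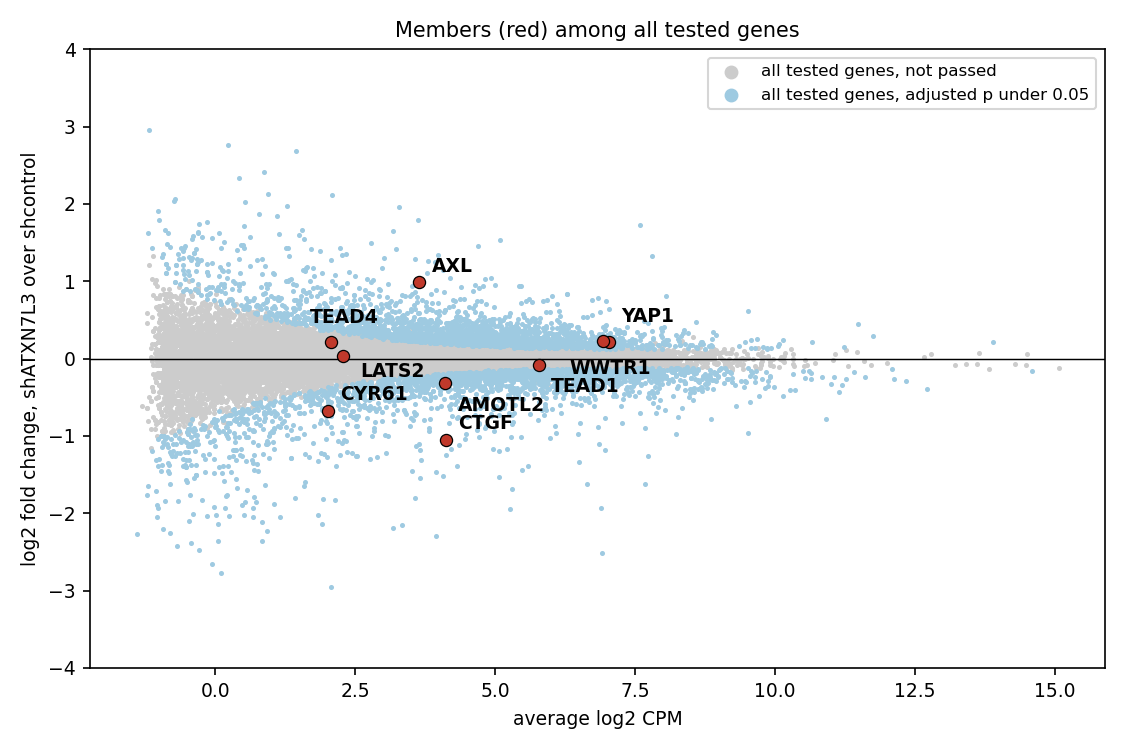
Log2 fold change of shATXN7L3 over shcontrol against average log2 CPM for the 17935 tested genes, grey where not called and blue where the adjusted p was under 0.05, with the 9 tested members in red. CTGF at -1.05 and AXL at 0.98 lie in the outer range of genes of their level, and YAP1 and WWTR1 lie together close to 0.

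Several members have exon bases in common with other genes, and reads in those bases cannot be told apart in the counts. For partners on the opposite strand this holds because the strand setting is not given. YAP1 overlapped 628 bases of RP11-864G5.3 on the opposite strand, CTGF 195 bases of RP11-69I8.3 on the opposite strand, and AMOTL2 187 bases of the pseudogene RPL39P5 on the same strand. The counts of those genes amounted to 15.6% to 17.1% of the YAP1 counts per library, 13.6% to 17.0% for CTGF and 14.5% to 18.4% for AMOTL2. With all of them subtracted, the log2 fold changes were 0.22, -1.08 and -0.33 (edgeR adjusted p = 0.00221, 3.58e-08 and 0.00179). Here and below the whole count of an overlapping gene was subtracted, wherever in that gene its reads lay. The share of reads in the common bases was not measured. The counts of the genes that overlap WWTR1 and AXL amounted to at most 3.02% of the WWTR1 counts and 3.29% of the AXL counts per library.

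Other genes of the pathway were read from lists built on textbook roles, with the 10 members left out. The lists were chosen with earlier results of these data known, so the shares called in them are descriptive. Of 44 such genes 42 were counted and 38 tested, and 7 were higher and 7 lower. That is 36.8% called, against 24.2% of all tested genes. Of the cofactor list, which holds the remaining TEAD genes and the Vestigial-like VGLL proteins that bind TEAD, 3 of 4 tested genes were higher and 0 lower (median log2 fold change 0.36).

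TEAD2, a paralog of TEAD1 and TEAD4, was at 24.6, 24.3 and 24.5 CPM in shATXN7L3 libraries, against 16.7, 16.7 and 17.0 CPM in shcontrol libraries (log2 fold change 0.54 ± 0.060, edgeR adjusted p = 1.58e-06). Per length it averaged 12.4 ± 0.179 TPM in shATXN7L3 and 8.41 ± 0.382 TPM in shcontrol (SD, n = 3 each). TEAD2 overlaps 319 exon bases of CD37 on the opposite strand. With the whole CD37 counts subtracted, which were 38.9% to 54.0% of those of TEAD2, the log2 fold change was 0.36 (edgeR adjusted p = 0.00588). TEAD3 did not pass the test, at 0.17 (95% interval -0.06 to 0.39, edgeR adjusted p = 0.284).

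VGLL3, a TEAD-binding cofactor, had 5.85, 4.81 and 4.60 CPM in shATXN7L3 libraries, against 3.38, 2.95 and 2.86 CPM in shcontrol libraries (log2 fold change 0.73 ± 0.14, edgeR adjusted p = 5.30e-04). VGLL4, which competes with YAP for TEAD, had 79.9, 80.6 and 76.5 CPM in shATXN7L3 libraries, against 69.2, 70.1 and 69.5 CPM in shcontrol libraries (log2 fold change 0.18 ± 0.046, edgeR adjusted p = 0.00585). Neither gene had overlapping groups. VGLL4 overlaps 1596 exon bases of ATG7 on the opposite strand. With the whole counts of overlapping genes subtracted, which were 52.7% to 56.3% of those of VGLL4, its log2 fold change was 0.23 (edgeR adjusted p = 0.00425).

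Of the 14 tested genes of the upstream kinase cascade, 1 was higher and 1 lower, or 14.3% called against 24.2% of all tested genes (median log2 fold change 0.03). MAP4K4, a kinase that can activate LATS kinases, fell to 407, 429 and 428 CPM in shATXN7L3 libraries, against 497, 534 and 463 CPM in shcontrol libraries (-0.24 ± 0.050, edgeR adjusted p = 0.00122). STK3, which encodes the Hippo kinase MST2, had 37.1, 38.8 and 36.5 CPM in shATXN7L3 libraries, against 33.2, 34.2 and 32.6 CPM in shcontrol libraries (0.17 ± 0.053, edgeR adjusted p = 0.0275). Its call was lost with DESeq2 (adjusted p = 0.113), with no filter (0.0510) and without shATXN7L3 replicate 1, 2 or 3 or shcontrol replicate 3 (0.0506 to 0.130), within a range of 0.00674 to 0.130 over all alternatives. LATS1, the paralog of LATS2, did not pass the test (-0.07, 95% interval -0.21 to 0.06, edgeR adjusted p = 0.451).

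Of 9 junction and scaffold regulators, 6 were tested, 2 were lower and 0 higher (median log2 fold change -0.14), where 12.0% of all tested genes were lower and 12.2% higher. The count of lower genes ran from 1 to 3 with a library left out. AJUBA, a LIM protein that restrains LATS kinases, had 16.2, 14.4 and 15.1 CPM in shATXN7L3 libraries, against 19.6, 19.3 and 18.8 CPM in shcontrol libraries (-0.34 ± 0.068, edgeR adjusted p = 9.86e-04). AJUBA overlaps 50 exon bases of RP11-298I3.5 on the same strand. With the whole counts of that gene subtracted, which were 23.2% to 30.2% of those of AJUBA, the log2 fold change was -0.40 (edgeR adjusted p = 0.00123). The atypical cadherin FAT4 had 9, 6 and 2 counts in shATXN7L3 libraries, against 16, 12 and 12 counts in shcontrol libraries (-1.30 ± 0.41, edgeR adjusted p = 0.0260). With 10 or more counts only in shcontrol libraries, FAT4 passed the filter through the group where it was higher. Its lower call, 1 of the 2 in this list, is therefore not independent of the filter. The FAT4 call was lost with DESeq2 (adjusted p = 0.114) and without shATXN7L3 replicate 2 or 3 or shcontrol replicate 1 or 2 (0.0548 to 0.148), within a range of 0.0149 to 0.148. The paralogs of AMOTL2 were barely detected. AMOT had 1, 0 and 0 counts in shATXN7L3 libraries and 0 in each shcontrol library, and AMOTL1 6, 10 and 8 counts in shATXN7L3 libraries against 10, 4 and 6 in shcontrol libraries.

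Beyond the 6 targets among the members, 15 further targets of the pathway were listed and 14 tested. Of these, 4 were lower and 3 higher, with a median log2 fold change of -0.09, where 12.0% of all tested genes were lower and 12.2% higher. With a library left out, 3 to 6 were lower and 2 to 4 higher, and with DESeq2 3 were lower and 3 higher. TGFB2, a ligand of the TGF-beta receptors, had 63.7, 60.5 and 59.6 CPM in shATXN7L3 libraries, against 91.0, 88.1 and 82.2 CPM in shcontrol libraries (-0.51 ± 0.050, edgeR adjusted p = 3.64e-07). TGFB2 overlaps 1371 exon bases of TGFB2-OT1 on the same strand. With the whole TGFB2-OT1 counts subtracted, which were 35.2% to 38.3% of those of TGFB2, the log2 fold change was -0.51 (edgeR adjusted p = 4.00e-07). F3, the initiator of coagulation, had 21.7, 21.8 and 23.0 CPM in shATXN7L3 libraries, against 35.8, 30.5 and 35.2 CPM in shcontrol libraries (-0.61 ± 0.066, edgeR adjusted p = 1.02e-06). CCDC80, a matrix-associated protein, averaged 17.6 CPM in shATXN7L3 and 23.2 CPM in shcontrol (-0.40 ± 0.067, edgeR adjusted p = 1.57e-04). In the other direction, the growth arrest gene GADD45A had 33.1, 38.0 and 36.2 CPM in shATXN7L3 libraries, against 26.7, 27.8 and 23.6 CPM in shcontrol libraries (0.46 ± 0.067, edgeR adjusted p = 3.80e-05). The groups did not overlap in any of these 4 genes. The remaining calls, named after their values were seen, were ARHGEF17 lower (-1.01 ± 0.29) and MYOF (0.16 ± 0.048) and IGFBP3 (0.39 ± 0.093) higher. ARHGEF17 had 9, 10 and 12 counts in shATXN7L3 libraries, against 19, 19 and 21 in shcontrol libraries (edgeR adjusted p = 0.0139). It passed the filter through shcontrol, where it was higher. IGFBP3 had 24.6, 26.9 and 34.9 CPM in shATXN7L3 libraries, against 22.5, 21.2 and 22.5 CPM in shcontrol libraries (edgeR adjusted p = 0.00430).

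**Figure D5:**
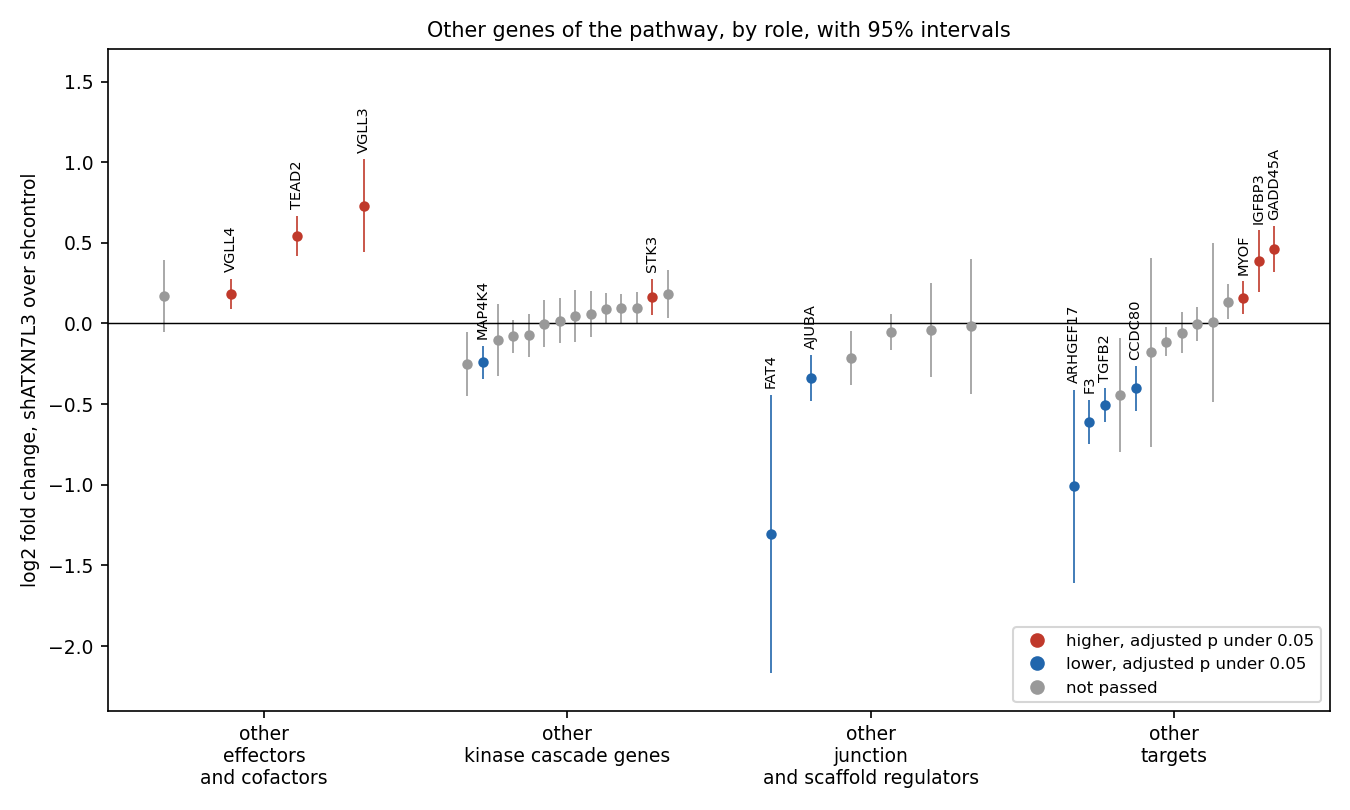
Log2 fold changes of shATXN7L3 over shcontrol on the vertical axis with 95% intervals for 38 other tested pathway genes in 4 role groups, red for higher, blue for lower and grey for not passed. The 14 kinase cascade genes cluster near 0, the 4 effectors and cofactors all lie above it, and the 14 further targets extend both ways.

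The genes whose pattern over the 6 libraries lay closest to that of CTGF, among 11684 compared, were NES, CXCL5 and INHBB, with root mean square distances of 0.0591, 0.0881 and 0.0951 on the centred log2 CPM scale. NES encodes the intermediate filament protein nestin and averaged 201 ± 7.98 CPM in shATXN7L3 and 397 ± 41.1 CPM in shcontrol (SD, n = 3 each). CXCL5 is a neutrophil-attracting chemokine and INHBB an activin and inhibin subunit. Closest to AXL were TGM2, GATA2 and TNNT1, at distances of 0.0602, 0.0752 and 0.0776. TGM2 encodes transglutaminase 2, a protein-crosslinking enzyme, and averaged 40.4 ± 2.43 CPM in shATXN7L3 and 19.6 ± 2.01 CPM in shcontrol (SD, n = 3 each). These distances describe the 6 libraries alone.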

How the data were processed

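The deposited table holds raw read counts per gene symbol, 1 column per library, with exon coordinates and exonic lengths. Per the submitters' processing notes, tools included STAR 2.5.3a, Trimmomatic 0.36, edgeR 3.12.1 and, from Subread 1.5.1, featureCounts, with GRCh38 as build. Strand setting, annotation release and handling of multi-mapping reads were not given in the sources used here.

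Treatment labels gave the groups and titles gave the replicate numbers. Genes were kept with filterByExpr of edgeR 4.0.16 in R 4.3.3 (minimum count 10, minimum total 15), which left 17935. Counts were scaled with TMM and compared by the quasi-likelihood F-test with group as the only term and Benjamini-Hochberg adjustment over all tested genes, threshold 0.05. The SE is the log2 fold change divided by the square root of F, an approximation. TPM used the deposited lengths. Ratios were tested by exact permutation over libraries. The common biological coefficient of variation was 4.37%, and the procedure was tested on simulated data. Chi-square per gene was 1.59 to 2.18 within shATXN7L3 and 3.60 to 6.52 within shcontrol, where sampling alone gives 1. No library was therefore dropped as a copy or resampling of another. These values do not show whether the libraries came from separate cultures.

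The members and gene lists were chosen with earlier results of these data known. Named genes are the members, ATXN7L3, up to 4 called genes of smallest p per list, 5 paralogs and the 3 genes closest in pattern to the lowest and highest called member. CTGF was matched to RefSeq through its current symbol. Alternatives were other scalings, filters and tests (DESeq2 1.42.0, limma 3.58.1 voom), a replicate block and each library left out. After seeing the data, a minimum count of 3 and the subtraction of overlapping genes' whole counts were added.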

Additional observations from a re-analysis of the deposited data

How the results depend on the processing

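The 6 calls among the members and their directions held under every alternative run (scaling, filter, test, replicate block, each library left out, and the 2 added after seeing the data). Over the members and settings, 144 values kept their direction and side of the threshold, 1 gained a call (TEAD1 without shcontrol replicate 1) and 2 reversed, both for LATS2, which was never called (-0.0066 without shATXN7L3 replicate 1 and -0.053 without shcontrol replicate 3, within -0.053 to 0.081 with a library left out). With DESeq2, 1405 genes were called higher (1603 lower) against 2182 (2150 lower) in the reported fit, and scaling by library size alone gave 2955 higher and 1604 lower. Of the kinase cascade genes, 5 were higher with library size alone and 0 with DESeq2, and 0 to 1 with a library left out. Of the junction regulators, 1 was lower with DESeq2 and with a CPM of at least 1 in 3 libraries, and 1 to 3 with a library left out. The WWTR1 over YAP1 difference ran from -0.042 to 0.056 with a library left out, reversing without shcontrol replicate 2 (-0.042) and shATXN7L3 replicate 2 (-0.022). The cause was not tested. The replicate numbers did not pair the libraries (correlations of same-numbered deviations -0.02, 0.00 and 0.04), and the replicate block gave 2188 higher and 2140 lower genes. Depth limits ANKRD1, FAT4, AMOT and AMOTL1, which had at most 16 counts per library. It also limits ARHGEF17, with 9 to 21 counts per library, and LYZ, with 2 to 26.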
